A study of Mus musculus with 4 samples.

Results

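The genes described here are 9 genes that encode ligands and receptors through which neighbouring skin cells act on melanocytes, chosen by name for what these proteins are known to do, with earlier results of these data known. They are the ligands Kitl, Pomc, Edn1, Edn3 and Hgf and the receptors Kit, Mc1r, Ednrb and Met, and 18 probe sets that name a single gene measure them, of 45037 probe sets and 17097 named genes on the array. RNA came from the shaved backs of male C3H mice that were 8 weeks old at the start, before a month of treatment. The RNA is on 4 Affymetrix PM array strips. Arrays Control 1 and Control 2 are of skin given Milli-Q water daily, and arrays TCQA 1 and TCQA 2 of skin given 1% TCQA, a caffeoylquinic acid derivative, in the same way. The labels date this skin to day 30. A legend of the study gives 30 days of daily treatment and dates PCR on treated skin to day 37. The methods also give a period of acclimation before treatment. Shaving under anaesthesia was common to both groups. A group had 5 mice by the methods of the study, but whether an array held RNA of 1 mouse or of several is not given, so p-values cover only how far these arrays vary, and that variation may be technical.

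Melanocytes of the hair follicle depend on signals from keratinocytes and dermal papilla fibroblasts. Kit ligand (Kitl) keeps melanocytes and their precursors alive through the receptor tyrosine kinase Kit. Alpha-MSH, cut from the precursor Pomc, raises cAMP through Mc1r and turns pigment synthesis towards black eumelanin. Endothelin 3 and endothelin 1 act through the G protein-coupled receptor Ednrb on melanocyte precursors and melanocytes, and hepatocyte growth factor (Hgf), made by fibroblasts, acts through the receptor tyrosine kinase Met.

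The study followed β-catenin and Mitf, the transcription factor of the melanocyte lineage, so the letters bound by such factors were looked up in the promoters of the 9 genes. RefSeq promoters (assembly GRCm38.p6, 250 bases before to 50 bases after the start site) were found for all 9 genes, 11 sequences in all, among 32851. The E-box CATGTG, searched with its reverse complement CACATG, is of the kind that Mitf binds and was in 2 of the 11 promoters, those of Mc1r and Hgf, and in 14.2% of all promoters. The palindromic E-box CACGTG was in 1, that of Met, and in 7.15% of all promoters. The core CTTTGA of the TCF/LEF partners of β-catenin, searched with TCAAAG, was in those of Mc1r and Edn3 and in 16.0% of all promoters. In the stretches printed here no motifs overlap, and a match is a description of the sequence, not of binding. The stretches around the matches follow because they hold the letters of the factors named by the study, all on the plus strand, with the motif in capitals.
Mc1r, chr8:123406998-123407058: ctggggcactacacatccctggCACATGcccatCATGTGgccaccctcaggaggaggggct
Mc1r, chr8:123406883-123406932: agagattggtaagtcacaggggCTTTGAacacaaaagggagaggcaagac
Met, chr6:17463809-17463858: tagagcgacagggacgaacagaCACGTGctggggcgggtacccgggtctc
Hgf, chr5:16553454-16553503: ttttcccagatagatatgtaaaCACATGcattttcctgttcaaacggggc
Edn3, chr2:174760369-174760410: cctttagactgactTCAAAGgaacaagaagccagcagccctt
The Mc1r promoter was the 1 member promoter with a pair of E-boxes, whose first bases lie 62 and 51 bases before the start site.

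Before the members, 1 array has to be described. Control 1 stood apart from the other 3 arrays, with 522 probe sets at a log2 value of 8 or more against 23 to 31 elsewhere, and with a correlation across probe sets of 0.412 to 0.413 with the others, which correlated at 0.884 to 0.956 among themselves. The skin label was borne out by keratinocyte markers on Control 1, where the median log2 value of 7 such genes was 7.99, while on the other arrays it lay between 2.25 and 2.71 and 1 of the 7, Krt5, exceeded the yardstick described in the next paragraph. For this reason differences are also given without Control 1, which leaves Control 2 as the control. Those differences rest on the arrays with the lower keratinocyte marker values and are not offered as the better comparison.

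Most ligand and receptor probe sets gave a dim signal on these arrays. The yardstick was 86 probe sets of 81 smell, vomeronasal and bitter taste receptor genes, which are best known from sensory organs. Whether skin cells express any of them was not tested. Their 95th percentile was 2.90 (Control 1), 4.53 (Control 2), 4.20 (TCQA 1) and 4.40 (TCQA 2), all on the log2 scale. None of the 18 member probe sets was above this level on all 4 arrays, where 3.3% of all probe sets were, and none was above the 99th percentile, where 1.65% were. Taken array by array, 3 were above it on Control 1, 1 on each of Control 2 and TCQA 1, and 0 on TCQA 2. The Kitl probe set 1448117_PM_at passed it on 3 arrays, and another Kitl probe set and a Met probe set passed it on Control 1 alone. The members' values therefore mostly lie in the range that these yardstick probe sets also cover. A dim value is not shown to be absence of the RNA. The yardstick probe sets had a median of 1.73 on Control 1, below the 2.30 of all probe sets there. On Control 2, TCQA 1 and TCQA 2 their median was 2.67, 2.63 and 2.65, above the 2.55, 2.54 and 2.49 of all probe sets.

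**Figure D1:**
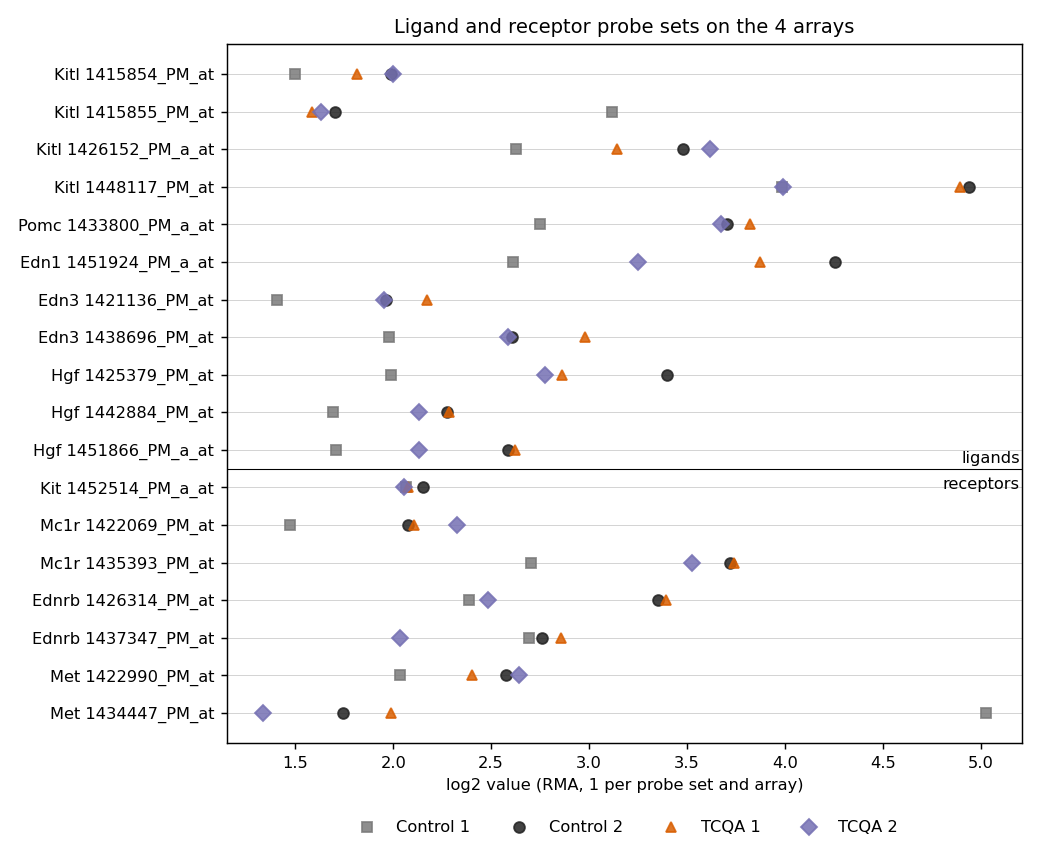
Log2 value (x axis) of each of the 18 probe sets (y axis) on Control 1, Control 2, TCQA 1 and TCQA 2, with 1 symbol per array, ligands above the line and receptors below. Control 1 is the lowest array for 14 of the 18 probe sets and the highest for 2, Kitl 1415855_PM_at at 3.12 and Met 1434447_PM_at at 5.03.

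TCQA and control skin were not shown to differ for any of the 9 genes. At a limma adjusted p under 0.05, 0 of the 18 were called (percent of all probe sets called: 0% higher and 0% lower), the adjusted p-values ran from 0.92 to 1.00, and the smallest unadjusted p was 0.20. At an unadjusted p under 0.05 the count was 0 of 18, beside 0.313% of all probe sets. The mean was higher with TCQA for 13 of 18 probe sets, beside 61.0% of all probe sets, and the median log2 fold change (TCQA minus control) was 0.19, beside 0.12 over all probe sets. Without Control 1 the mean was higher for 4 of 18, beside 46.7% of all probe sets, and the median was -0.09, beside -0.02. The sign of 9 of the 18 log2 fold changes turned with that array left out, a count that was not made over all probe sets. Control 1 was the lowest array for 14 of 18 probe sets, beside 58.4% of all probe sets, and the highest for 2, beside 28.1%. For 17 of 18 the groups differed by less than Control 1 and Control 2 did. The same was not counted over all probe sets. Control 1 enters both differences, so this count is not read as a trait of the members. Both TCQA arrays were above both control arrays for 1 probe set, of Mc1r, beside 17.9% of all probe sets, and below both for 1, of Kitl, beside 10.9%. Against Control 2 alone, both TCQA arrays were higher for 1 probe set, beside 27.2% of all probe sets, and lower for 5, beside 33.8%.

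**Figure D2:**
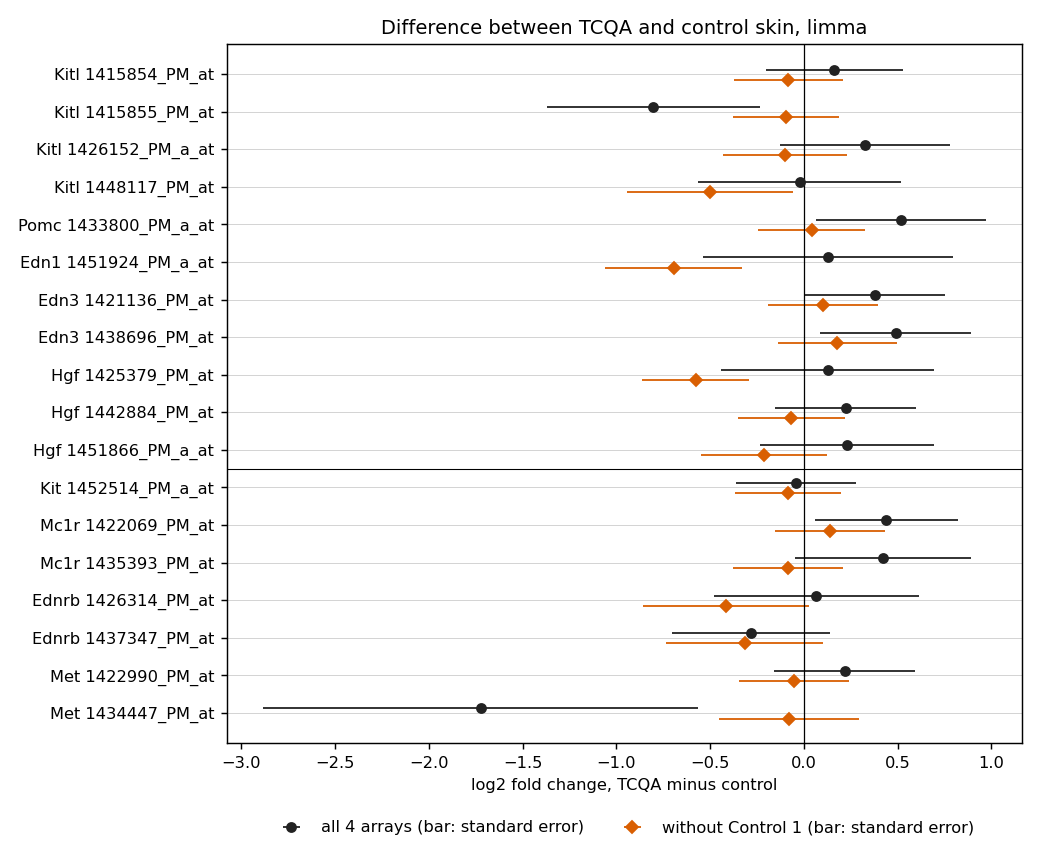
Log2 fold change, TCQA minus control (x axis), of each of the 18 probe sets (y axis), with all 4 arrays (circles) and without Control 1 (diamonds); bars are the standard errors from limma. With all arrays 13 circles lie above 0, and without Control 1 only 4 diamonds do, those of Pomc, of Edn3 with 2 probe sets and of Mc1r 1422069_PM_at.

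Among the ligands, Kitl was measured by 4 probe sets that placed Control 1 differently. The brightest, 1448117_PM_at, had log2 values of 3.99 (Control 1), 4.94 (Control 2), 4.89 (TCQA 1) and 3.99 (TCQA 2). Control 1 was level with TCQA 2 and Control 2 with TCQA 1, so the groups overlapped fully, and the log2 fold change was -0.02 (SE 0.54, limma adjusted p = 1.00). Probe set 1415855_PM_at had 3.12 (Control 1), 1.70 (Control 2), 1.58 (TCQA 1) and 1.63 (TCQA 2). Here both TCQA arrays were below both controls, and the log2 fold change of -0.80 (SE 0.57, limma adjusted p = 0.92) was -0.10 without Control 1. Probe set 1415854_PM_at had 1.50 (Control 1), 1.99 (Control 2), 1.81 (TCQA 1) and 2.00 (TCQA 2), and 1426152_PM_a_at had 2.63 (Control 1), 3.48 (Control 2), 3.15 (TCQA 1) and 3.62 (TCQA 2). In this pair of probe sets Control 1 was lowest and Control 2 lay between the TCQA arrays, with log2 fold changes of 0.16 and 0.33 that were -0.08 and -0.10 without Control 1. The annotation gives the same source sequence for 3 of the 4, 1415854_PM_at, 1415855_PM_at and 1448117_PM_at, which put Control 1 lowest, highest and level with TCQA 2 at the low end. All 4 Kitl probe sets had a lower TCQA mean than Control 2, with log2 fold changes between -0.50 and -0.08.

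Pomc, the precursor of alpha-MSH and ACTH, was measured by 1 probe set, 1433800_PM_a_at. Its log2 values were 2.75 (Control 1), 3.71 (Control 2), 3.82 (TCQA 1) and 3.67 (TCQA 2). The TCQA arrays lay on either side of Control 2, and Control 1 was below them all. The mean was 3.23 ± 0.68 (SD, n = 2) over the controls and 3.75 ± 0.10 (SD, n = 2) over the TCQA arrays, a log2 fold change of 0.52 (SE 0.45, limma adjusted p = 0.92), which is the highest of the 18 probe sets. Without Control 1 it was 0.04. Ranked within each array, this probe set stood at percentile 62.2 of all probe sets on Control 1 and at percentiles 84.5, 86.9 and 86.1 on Control 2, TCQA 1 and TCQA 2.

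Edn1, the endothelin that keratinocytes and endothelial cells release, varied most between arrays among the ligands. Its probe set 1451924_PM_a_at had log2 values of 2.61 (Control 1), 4.26 (Control 2), 3.87 (TCQA 1) and 3.25 (TCQA 2). The control arrays thus lay at both ends, with the TCQA arrays between them, and the log2 fold change was 0.13 (SE 0.67, limma adjusted p = 0.98). Without Control 1 the log2 fold change was -0.69, the lowest of the 18, with a limma adjusted p of 1.00. Edn3, the ligand of Ednrb needed for melanoblasts to populate the skin, had 1.98 (Control 1), 2.60 (Control 2), 2.98 (TCQA 1) and 2.58 (TCQA 2) with probe set 1438696_PM_at. With 1421136_PM_at it had 1.41 (Control 1), 1.96 (Control 2), 2.17 (TCQA 1) and 1.96 (TCQA 2). The Edn3 probe sets had the same order, with Control 1 lowest, TCQA 1 highest and Control 2 level with TCQA 2, and their log2 fold changes of 0.49 and 0.38 (limma adjusted p = 0.92 for each) were 0.18 and 0.10 without Control 1.

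Hgf was measured by 3 probe sets, and Control 1 was the lowest array for each. Probe set 1425379_PM_at had log2 values of 1.99 (Control 1), 3.40 (Control 2), 2.86 (TCQA 1) and 2.78 (TCQA 2), so the controls lay on either side of the TCQA arrays. Its log2 fold change was 0.13 (SE 0.57, limma adjusted p = 0.97), and -0.58 without Control 1. Probe set 1442884_PM_at had 1.69 (Control 1), 2.27 (Control 2), 2.28 (TCQA 1) and 2.13 (TCQA 2), and 1451866_PM_a_at had 1.71 (Control 1), 2.59 (Control 2), 2.62 (TCQA 1) and 2.13 (TCQA 2). In this pair Control 2 was level with TCQA 1 and above TCQA 2. Their log2 fold changes were 0.22 and 0.23, and -0.07 and -0.21 without Control 1, so that the sign of all 3 Hgf probe sets turned with that array.

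Among the receptors, Kit had the steadiest signal of the 18 probe sets. Its only probe set, 1452514_PM_a_at, had log2 values of 2.06 (Control 1), 2.15 (Control 2), 2.08 (TCQA 1) and 2.05 (TCQA 2). The median of the yardstick probe sets was 1.73 on Control 1, below the Kit value. On the other arrays it was 2.63 to 2.67, above the Kit values, so the steadiness is that of a dim signal. All arrays lay within 0.10 of each other, and the log2 fold change was -0.04 (SE 0.32, limma adjusted p = 0.98), and -0.086 without Control 1. Kit is also the defining receptor of mast cells, and in bulk skin fewer cells of a type and less RNA per cell cannot be told apart. Of 7 mast cell markers, 7 had their lowest value on Control 1, beside 8991 of 17097 named genes. The median of the markers was 2.07 on Control 1 and 2.47 to 2.52 elsewhere. The yardstick probe sets also had their lowest median on Control 1. The summed log2 value of the mast cell markers was 13.6 to 18.2 in the control and 17.4 to 17.5 with TCQA. Such a sum is not an amount of RNA. None of the mast cell markers was above the yardstick on all arrays. Their part in the Kit signal was not tested.

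Mc1r, the receptor of alpha-MSH that sets the balance of eumelanin and pheomelanin, was measured by 2 probe sets. Probe set 1435393_PM_at had log2 values of 2.71 (Control 1), 3.72 (Control 2), 3.74 (TCQA 1) and 3.52 (TCQA 2). Control 2 lay between the TCQA arrays, and the log2 fold change of 0.42 (SE 0.47, limma adjusted p = 0.92) was -0.09 without Control 1. The dimmer 1422069_PM_at had 1.47 (Control 1), 2.08 (Control 2), 2.10 (TCQA 1) and 2.33 (TCQA 2). This was the member probe set with both TCQA arrays above both controls, although TCQA 1 exceeded Control 2 by only 0.03 on the log2 scale. The log2 fold change was 0.44 (SE 0.38, limma adjusted p = 0.92), and 0.14 without Control 1. Mc1r and Kitl are also on a list of upregulated genes that the study drew from these arrays. Their values here are therefore no independent evidence of a direction. In the limma fit no probe set of either gene was called. The log2 fold change was above 0 for 2 of 2 Mc1r and 2 of 4 Kitl probe sets.

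Ednrb, the receptor that melanoblasts need to reach the skin, differed between the TCQA arrays about as much as Kitl 1448117_PM_at did. Ednrb probe set 1426314_PM_at had log2 values of 2.39 (Control 1), 3.35 (Control 2), 3.39 (TCQA 1) and 2.48 (TCQA 2). Ednrb probe set 1437347_PM_at had 2.69 (Control 1), 2.76 (Control 2), 2.86 (TCQA 1) and 2.03 (TCQA 2). TCQA 2 was below TCQA 1 by 0.91 and 0.82 on the log2 scale (TCQA 1 minus TCQA 2), while Control 2 and TCQA 1 were within 0.10 of each other for both. Control 1 was low with TCQA 2 for the first and close to Control 2 for the second. The log2 fold changes were 0.07 (SE 0.54, limma adjusted p = 0.99) and -0.28 (SE 0.42, limma adjusted p = 0.93). The first was -0.01 after quantile normalization and -0.02 when arrays were centred on their medians. Without Control 1 the log2 fold changes were -0.42 and -0.32.

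The widest range of all belonged to Met, the receptor of Hgf, and rested on Control 1. Probe set 1434447_PM_at had log2 values of 5.03 (Control 1), 1.74 (Control 2), 1.99 (TCQA 1) and 1.33 (TCQA 2). Control 2 lay between the TCQA arrays, Control 1 was at percentile 90.1 of its array and the others were between percentiles 2.42 and 27.0. The mean was 3.39 ± 2.32 (SD, n = 2) over the controls and 1.66 ± 0.46 (SD, n = 2) over the TCQA arrays, and the log2 fold change of -1.72 (SE 1.16, limma adjusted p = 0.92) was -0.08 without Control 1. The other probe set, 1422990_PM_at, put Control 1 lowest, with 2.03 (Control 1), 2.57 (Control 2), 2.40 (TCQA 1) and 2.64 (TCQA 2). Its log2 fold change of 0.22 became -0.05 once Control 1 was left out. The pair thus placed Control 1 at opposite ends of the 4 arrays. When Control 2 was left out in place of Control 1, Met 1434447_PM_at at -3.37 (limma adjusted p = 0.0030) and Kitl 1415855_PM_at at -1.51 (limma adjusted p = 0.018) passed the test, 2 of 18 lower and 0 higher, beside 16.1% of all probe sets lower and 7.34% higher.

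Ligands were then set beside their receptors. Probe sets bind with different strength, so a ligand's signal above a receptor's does not show more RNA, and only the change of their difference from array to array is described. Most of these values lie in the range of the yardstick probe sets, and how closely such differences follow the RNA there was not tested. With the mean log2 value of each gene's probe sets over Control 2, TCQA 1 and TCQA 2, the order of the signals was Edn1 at 3.79 ± 0.51 (SD, n = 3), Pomc at 3.73 ± 0.08, Mc1r at 2.91 ± 0.015, Kitl at 2.90 ± 0.12, Ednrb at 2.81 ± 0.48, Hgf at 2.56 ± 0.20, Edn3 at 2.38 ± 0.17, Met at 2.11 ± 0.11 and Kit at 2.09 ± 0.05. Edn1 and Pomc did not differ from each other beyond these spreads, nor did neighbours in the run from Mc1r to Kit. On Control 1 the order was another, with Met highest at 3.53 and Edn3 lowest at 1.69. As a set, the 11 ligand probe sets had a median log2 value of 1.99 on Control 1 and 2.58 to 2.86 on the others, and the 7 receptor probe sets 2.39 on Control 1 and 2.33 to 2.57 on the others.

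Within arrays, with the mean over each gene's probe sets, Kitl minus Kit and Pomc minus Mc1r had the narrowest spans of the 5 differences. Kitl minus Kit was 0.74 (Control 1), 0.88 (Control 2), 0.78 (TCQA 1) and 0.75 (TCQA 2). Pomc minus Mc1r was 0.66 (Control 1), 0.81 (Control 2), 0.90 (TCQA 1) and 0.75 (TCQA 2), a narrow span although Pomc and Mc1r each had their lowest value on Control 1. TCQA minus control came to -0.04 and 0.09 for these differences, and to -0.11 and 0.016 without Control 1. The span of Kitl minus Kit depended on the averaging of Kitl probe sets that placed Control 1 at opposite ends. With the brightest Kitl probe set it was 1.92 (Control 1), 2.79 (Control 2), 2.82 (TCQA 1) and 1.93 (TCQA 2), a span of 0.90 against 0.13 with the mean. Edn1 minus Ednrb was 0.08 (Control 1), 1.20 (Control 2), 0.75 (TCQA 1) and 0.99 (TCQA 2), and Hgf minus Met was -1.73 (Control 1), 0.59 (Control 2), 0.39 (TCQA 1) and 0.36 (TCQA 2). Control 1 was the lowest array for this pair of differences, whose TCQA minus control of 0.23 and 0.95 were -0.33 and -0.22 without it.

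Edn3 minus Ednrb was the 1 difference of probe set means for which the groups did not overlap. It was -0.85 (Control 1), -0.77 (Control 2), -0.55 (TCQA 1) and 0.01 (TCQA 2). The mean was -0.81 ± 0.05 (SD, n = 2) over the controls and -0.27 ± 0.40 (SD, n = 2) over the TCQA arrays, a TCQA minus control of 0.54. Leaving out 1 array gave 0.51 without Control 1, 0.58 without Control 2, 0.82 without TCQA 1 and 0.26 without TCQA 2. With the brightest probe sets the groups overlapped, at -0.41 (Control 1), -0.75 (Control 2), -0.41 (TCQA 1) and 0.10 (TCQA 2). TCQA 2 was the highest array and also the one with the lowest Ednrb signal. In exact two-sided permutation tests over the 4 arrays, p was 0.333 for Edn3 minus Ednrb, the smallest that 2 arrays against 2 allow, 0.667 for Pomc minus Mc1r and 1.00 for the other 3, and 1.00 for all 5 after Benjamini-Hochberg adjustment.

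**Figure D3:**
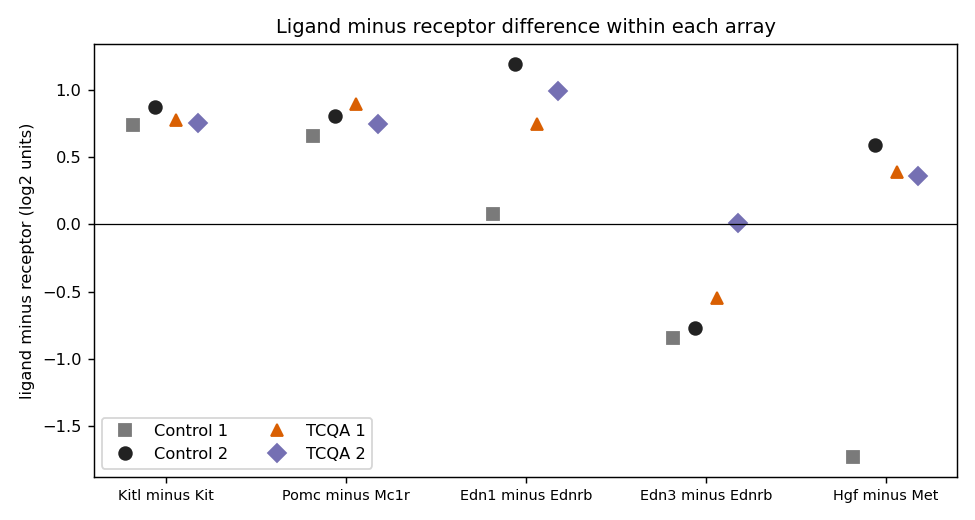
Mean log2 value of the ligand's probe sets minus that of the receptor's (y axis, log2 units) within each array, for the 5 ligand and receptor pairs (x axis), with 1 symbol per array. Kitl minus Kit lies between 0.74 and 0.88 on all arrays, whereas Hgf minus Met is -1.73 on Control 1 and 0.36 to 0.59 on the others.

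The other genes of these pathways, taken as the mean of each gene's probe sets, gave 0 probe sets past an adjusted p of 0.05 in limma in each of 5 lists, and over all named genes the median log2 fold change was 0.06, or -0.02 without Control 1. Among the 17097 named genes, 9474 had a log2 fold change above 0 and 7618 below 0. Without Control 1 these counts were 7885 and 9209. Of 11 measured genes of KIT signalling, 4 were above 0 and 7 below 0 in log2 fold change. Their median was -0.21, and -0.18 without Control 1. The largest in size were 0.54 for Mmp9, a protease linked to the release of soluble Kit ligand, and -0.53 for Adam10, a sheddase of membrane proteins, which were 0.13 and 0.02 without Control 1. Of 12 measured genes of melanocortin signalling, 8 had a positive and 4 a negative value, with a median of 0.18 that was 0.05 without Control 1. Cpe, a carboxypeptidase that trims peptides cut from Pomc, had log2 values of 6.34 (Control 1), 1.47 (Control 2), 1.78 (TCQA 1) and 1.98 (TCQA 2), and Prkaca, the catalytic subunit of the cAMP-dependent kinase, had 5.83 (Control 1), 2.29 (Control 2), 2.29 (TCQA 1) and 2.80 (TCQA 2). Their log2 fold changes of -2.02 and -1.52 were 0.41 and 0.25 without Control 1. Asip, the agouti antagonist of Mc1r, is not named by the platform annotation and was not analysed here.

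Of 7 measured genes of endothelin signalling, 2 were above 0 and 5 below 0 in log2 fold change, around a median of -0.37 that was -0.07 without Control 1 and -0.73 without Control 2. The largest in size were -1.37 for Plcb4, a phospholipase downstream of Gq, and -0.77 for Gna11, an alpha subunit of that class, which were -0.48 and -0.42 without Control 1. Of 10 genes around HGF and MET, 2 had a positive and 8 a negative value, with a median of -0.40 that was -0.02 without Control 1. Spint1 and Spint2, inhibitors of the proteases that activate HGF, had -1.12 and -1.05, which were -0.63 and 0.46 without Control 1. Of 17 measured other paracrine factors and receptors, 13 had a positive and 4 a negative value, with a median of 0.18 that was -0.06 without Control 1, and the largest were 0.69 for the cytokine Lif and -0.62 for the receptor Fgfr1, which were 0.30 and -0.22 without Control 1. No gene of the 5 lists was above the yardstick on all arrays.

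Melanocyte markers were about as dim as the members. Of 10 melanocyte markers, 8 had their lowest value on Control 1, beside 8991 of 17097 named genes. The median log2 value of the markers was 2.02 (Control 1), 2.68 (Control 2), 2.94 (TCQA 1) and 2.54 (TCQA 2). Dct, the dopachrome tautomerase, had log2 values of 2.10 (Control 1), 3.16 (Control 2), 3.36 (TCQA 1) and 3.04 (TCQA 2), and Pmel, the protein of melanosome fibrils, had 2.43 (Control 1), 3.98 (Control 2), 3.45 (TCQA 1) and 3.92 (TCQA 2). Mitf itself had 3.68 (Control 1), 2.66 (Control 2), 2.65 (TCQA 1) and 2.49 (TCQA 2), the 1 marker of the list with its highest value on Control 1. Otherwise the melanocyte list mostly placed Control 1 below the others, as 14 of the 18 member probe sets and 58.4% of all probe sets did. The yardstick probe sets also had their lowest median on Control 1. The melanocyte list had a summed log2 value of 22.1 to 29.2 in the control and 27.9 to 29.3 with TCQA. Of its 10 genes, 0 were above the yardstick on all arrays.

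Markers of keratinocytes, dermal fibroblasts and skeletal muscle had the opposite order. Of 7 dermal fibroblast markers, 5 had their highest value on Control 1, beside 6035 of 17097 named genes. The median of the fibroblast list was 5.27 on Control 1 and 2.29 to 2.93 elsewhere. All 7 keratinocyte and all 7 skeletal muscle markers were highest on Control 1, with medians of 7.99 and 10.85 there. The summed log2 value of the fibroblast list was 20.0 to 33.4 in the control and 18.5 to 19.9 with TCQA, and that of the keratinocyte list was 18.9 to 48.5 and 18.8 to 19.5. Of these lists 1 gene, Krt5, was above the yardstick on all 4 arrays, and it is named here after its values were seen. The part of these cells in the Control 1 values of Kitl 1415855_PM_at and Met 1434447_PM_at was not tested. The 6 endothelial markers had a median of 2.22 on Control 1 and 2.08 to 2.14 elsewhere, and the 5 macrophage markers 2.52 and 2.42 to 2.51. Single markers of these lists went either way, such as Kdr at 2.93 on Control 1 and 4.14 to 4.66 elsewhere and Lyz2 at 5.56 and 2.25 to 2.48, both named after their values were seen. The 4 measured adipocyte markers had a median of 5.91 on Control 1 and 2.31 to 2.76 elsewhere.

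**Figure D4:**
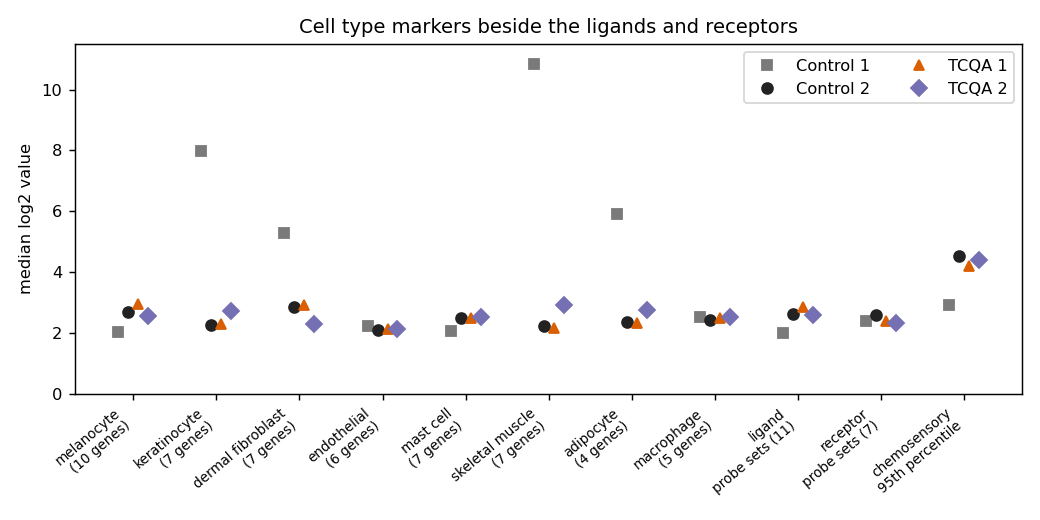
Median log2 value (y axis) of 8 cell type marker lists, of the ligand and receptor probe sets and the 95th percentile of the chemosensory receptor probe sets (x axis), with 1 symbol per array. Keratinocyte and skeletal muscle markers reach 7.99 and 10.85 on Control 1, while the ligands have their lowest median, 1.99, on that array.

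The genes whose pattern over the 4 arrays was nearest to the most variable ligand and receptor probe sets were looked up as a description. Over 28897 probe sets of other named genes, the nearest to Edn1 were Akr1d1, Gm4129 and Gm17597, with root mean square differences of 0.015, 0.024 and 0.032 between log2 values centred on each probe set's mean. The nearest to Met 1434447_PM_at were Hpx, a haem-binding plasma protein, Tecr, an enzyme of fatty acid elongation, and Pex6, a peroxisome biogenesis factor, at 0.045, 0.047 and 0.064. The likeness rests on 4 arrays and carries no test.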

How the data were processed

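Total RNA of dorsal skin was hybridised to 4 Affymetrix mouse PM array strips, 2 per group. The values that the authors deposited are on a log2 scale. Their processing notes list RMA, with Expression Console and Transcriptome Analysis Console as software, and give no versions. Whether the arrays were normalized together is not given in the sources used here. The deposited values did not share 1 distribution, with medians of 2.30 (Control 1), 2.55 (Control 2), 2.54 (TCQA 1) and 2.49 (TCQA 2). Probe sets at a log2 value of 8 or more numbered 522, 26, 31 and 23 in the same order. RMA values carry no detection call and no depth, and the number of arrays limits the precision. Leaving out 104 control probe sets gave 45037, of which 28898 name 1 gene in the platform annotation, 551 name several and 15588 are unnamed here. All columns were mapped to a sample.

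TCQA and control arrays were compared in R 4.3.3 by limma 3.58.1, whose moderated two-sided p-values were adjusted by Benjamini-Hochberg across the 45037 probe sets, on the values as deposited, with no filter on dim probe sets; log2 fold changes are TCQA minus control. The step was tested on simulated data whose means and spreads came from Control 2, TCQA 1 and TCQA 2. That test does not show how the step behaves with an array as different as Control 1. Ligand minus receptor differences averaged the probe sets of each gene first and were tested with exact permutation tests (SciPy 1.17.1). Named genes are all members, the 2 largest differences of each pathway list, the melanocyte markers and the 3 nearest genes. The members and lists were chosen with earlier results of these data known. Promoters came from RefSeq. Alternatives were each array left out, quantile normalization, median centring, probe sets below the median left out, the trend and robust options, a replicate block, an unmoderated test, and other choices of probe sets.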

Additional observations from a re-analysis of the deposited data

How the results depend on the processing

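No member probe set passed an adjusted p of 0.05 under quantile normalization, median centring, the trend and robust options, an unmoderated test or without the probe sets below the median, a filter that removed 10 of the 18. Leaving out 1 array gave 0 to 2 called members and 0 to 10538 called probe sets, the upper ends without Control 2; the remaining array of a group is then assumed to vary like the other group. With the replicate number as a block, 0 members and 0 of all probe sets were called, and the block changed no call; across probe sets, Control 1 minus Control 2 correlated at -0.124 with TCQA 1 minus TCQA 2, and with crossed numbers, a choice made after seeing the data, the counts were also 0 and 0. The median over the members ran from -0.086 (without Control 1) to 0.60 (without Control 2).

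Leaving out 1 array turned the sign of several log2 fold changes, which ran from -0.082 to 0.41 for Kitl 1415854_PM_at, from -0.10 to 0.75 for Kitl 1426152_PM_a_at, from -0.50 to 0.46 for Kitl 1448117_PM_at, from -0.69 to 0.95 for Edn1, from -0.58 to 0.83, -0.067 to 0.51 and -0.21 to 0.67 for Hgf 1425379_PM_at, 1442884_PM_at and 1451866_PM_a_at, from -0.086 to 0.0011 for Kit, from -0.086 to 0.93 for Mc1r 1435393_PM_at, from -0.42 to 0.55 and -0.69 to 0.13 for Ednrb 1426314_PM_at and 1437347_PM_at, and from -0.052 to 0.49 for Met 1422990_PM_at. After quantile normalization Kitl 1448117_PM_at had 0.33 and Ednrb 1426314_PM_at -0.011, and the latter had -0.021 with median centring. For the differences between ligand and receptor, leaving out 1 array gave -0.11 to 0.026 for Kitl minus Kit, -0.33 to 0.80 for Edn1 minus Ednrb, 0.26 to 0.82 for Edn3 minus Ednrb and -0.22 to 2.11 for Hgf minus Met, and Kitl minus Kit was 0.14 after quantile normalization and 0.021 with the brightest probe set. The pathway medians ran from -0.42 to -0.14 for KIT signalling, which was -0.038 with the brightest probe set, from -0.73 to -0.07 for endothelin signalling, from -0.75 to -0.02 for HGF and MET, from -0.06 to 0.44 for the other paracrine factors, and from 0.025 to 0.37 for melanocortin signalling, which was 0.11 after quantile normalization and 0.087 with median centring. The cause of these changes was not tested.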
